A study of Mus musculus with 14 samples.

Results

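Newborn mouse paws labelled Krt9-/- were compared with wild-type paws on the day of birth, across all expressed genes. The comparison takes every library labelled postnatal day 0 (P0), 6 of the 14 of the series: 2 of genotype Krt9-/- (Krt9 null) and 4 of wild-type (WT) genotype. Each library is total RNA of whole paws, depleted of ribosomal RNA. Krt9 null replicate 1 is a male of litter 1 and replicate 2 a female of litter 7. WT replicates 1 and 3 are males of litters 1 and 3, and replicates 2 and 4 are labelled as females of litters 2 and 4. The sources used here do not give the type of Krt9 allele, the strain or whether paws of several animals were combined. The other 8 libraries, of postnatal day 3 (P3), entered the same fit to help estimate the spread between libraries. They also entered the shared sex term and the filter that chose the genes tested. Each P0 library held between 29634978 and 41004173 counts, and 21619 of 56691 genes were tested.

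In the header of the count table the columns form 2 alphabetical runs. Run A holds Krt9 null replicate 1 and WT replicates 1 to 3, and run B holds Krt9 null replicate 2 and WT replicate 4. What the runs stand for is not stated, so they are used here only to see whether a difference appeared in both. With the run as a term over the libraries of both days, 5017 of 21619 genes were called for the run itself. The main fit has no run term, and the 2 genotypes are spread unevenly over the runs at P0. The runs differ in the log2 ratio of the type I collagen genes Col1a1 and Col1a2, which was 0.33 to 0.42 in run A, -0.0004 in WT replicate 4 and -0.10 in Krt9 null replicate 2. WT replicate 4, the only WT library of run B, is labelled female but held 0.181 CPM (counts scaled to library size) of Xist, the RNA of the inactive X chromosome, and 0.155 CPM of Y-linked Ddx3y, and so showed neither sex's marker. In the other 5 libraries the markers went with the label. By correlation of log2 CPM, WT replicate 4 was the closest library to both Krt9 null libraries (r = 0.977 and 0.979). A list's median without WT replicate 4 is therefore given where it moved by over 1.5 times. The defining markers of epidermis, fibroblasts, skeletal muscle, cartilage, bone, vessels, nerve sheath, macrophages and mast cells were detected in every P0 library, as whole paws would hold them, with the cartilage gene Matn1 the lowest at 0.673 CPM. Markers of Merkel cells (Krt20 and Atoh1) reached at most 1.61 CPM. In such bulk RNA, fewer cells of a type and less RNA per cell cannot be told apart.

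Keratins are the intermediate filament proteins of epithelial cells, and each filament pairs a type I with a type II chain. Basal keratinocytes make Krt5 and Krt14, differentiating cells switch to Krt1 and Krt10, and the thick epidermis of palms and soles adds Krt9, a type I chain whose mutations cause epidermolytic palmoplantar keratoderma in people. Krt19 is a small type I keratin that lacks most of the tail domain of other keratins and is known from simple epithelia, hair follicle bulge cells and Merkel cells. The genes of most type I keratins stand side by side in one cluster, where Krt19 and Krt9 are neighbours.

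Sequences of these 2 neighbours are shown for reference, and no difference between genotypes was traced to them. They are the coding start of Krt19, the gene that separated the genotypes, and the stretch upstream of Krt9, the targeted gene. The Krt19 sequence is the first 150 of 1209 coding bases of the GENCODE M21 transcript (GRCm38, chr11:100145710-100145859, minus strand), with the start codon in capitals. The Krt9 sequence is the 250 bases before the RefSeq transcription start (GRCm38.p6, chr11:100193247-100193496, minus strand). In it the letters TATAA, in capitals, lie 40 bases before the start. On either strand TATAA occurs in 22.8% of 32851 such upstream windows, so the match is common. Neither GGGCGG (in 32.7% of windows) nor TGANTCA (in 6.75%) was found in the Krt9 window.
Krt19 coding start: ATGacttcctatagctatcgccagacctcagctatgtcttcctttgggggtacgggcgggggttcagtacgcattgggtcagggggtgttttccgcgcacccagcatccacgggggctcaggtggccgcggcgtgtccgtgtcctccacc
Krt9 upstream: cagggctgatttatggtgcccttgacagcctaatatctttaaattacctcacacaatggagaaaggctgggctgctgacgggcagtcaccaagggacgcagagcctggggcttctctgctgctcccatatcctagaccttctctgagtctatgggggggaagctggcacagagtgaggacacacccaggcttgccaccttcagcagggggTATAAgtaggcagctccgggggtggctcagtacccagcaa

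The question of the comparison was which genes differ at birth between WT and Krt9 null paws. Krt19 was at 1.38, 1.13, 1.61 and 1.42 CPM in WT replicates 1 to 4, and at 99.6 and 209 CPM in Krt9 null replicates 1 and 2. The WT libraries lay close together and both Krt9 null libraries lay far above them. In raw reads these are 53, 30, 45 and 55 counts against 3471 and 8299. The fitted log2 fold change was 6.77 (SE 0.39, 109-fold, n = 2 and 4), with edgeR's adjusted p = 5.17e-06. Krt19 was the only gene called, which is 0.00463% of the genes tested. With litter as a fixed block the call was lost (log2 fold change 6.17). That fit compares only Krt9 null replicate 1 with WT replicate 1, which share a litter. It thus compares single libraries and not the genotypes. The Krt9 null library was higher within each run, by 6.13 on the log2 scale in run A and by 7.14 in run B, and the difference was 6.76 in the fit without WT replicate 4. None of the 1527 stretches of 50 bases in its longest transcript occurs in a transcript of another gene in GENCODE M21, and the same holds for Krt9.

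RNA of the targeted gene was not detectably lower. Krt9 RNA was at 2.09, 4.59, 7.61 and 5.59 CPM in the WT libraries and at 6.08 and 5.32 CPM in the Krt9 null libraries. Both Krt9 null values lay inside the WT range, and the log2 fold change was 0.19 (SE 0.56, edgeR's adjusted p = 0.968). On P3 the WT libraries held between 32.9 and 83.0 CPM of Krt9, more than any P0 library. Krt9 RNA at P0 thus checks no genotype label.

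The other simple epithelial keratins, the usual companions of Krt19, did not pass the test. Krt8, its common type II partner, was at 2.01, 5.87, 4.72 and 3.42 CPM in WT and at 5.65 and 6.60 CPM in Krt9 null libraries, a log2 fold change of 0.62 (SE 0.38), and the groups overlapped. Krt18, the usual partner of Krt8, was at 1.78 to 2.57 CPM in WT and at 2.58 and 2.42 CPM in Krt9 null libraries (0.15, SE 0.39). Krt7 overlapped as well, at -0.01 (SE 0.28), and the Merkel cell and gut keratin Krt20 was at or under 1.18 CPM in every library. Of the 9 Merkel cell markers tested, 0 lay above all WT libraries (6.47% of all genes did) and 0 below (4.82%), while 3 were at least 0.5 higher in both runs (2.81% of all genes). Their median log2 fold change was 0.40 where that of all genes was -0.0039, and it was 0.67 without WT replicate 3 and 0.25 without Krt9 null replicate 1.

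The neighbours of Krt9 were then read in gene order. In GENCODE M21 the coding genes run Krt36, Krt13, Krt15, Krt19, Krt9, Krt14, Krt16, Krt17 and Krt42, all on the minus strand. On the side of Krt19, Krt13, a keratin of internal mucosae, was at 3.79, 3.95, 1.79 and 1.81 CPM in WT and at 0.890 and 1.28 CPM in Krt9 null libraries. Both Krt9 null values lay below all WT values, and the log2 fold change of -1.41 (SE 0.53) had an unadjusted p = 0.0179 and did not pass over all genes (edgeR's adjusted p = 0.831). It was -1.69 in run A and -0.48 in run B.
Krt15, a keratin of basal and bulge cells that sits directly beside Krt19, was at 762, 787, 1006 and 769 CPM in WT and at 589 and 698 CPM in Krt9 null libraries. Both lay below the WT range, and the fitted log2 fold change was -0.38 (SE 0.21). On the other side of Krt9, the basal keratin Krt14 was at 3850, 3267, 3194 and 1814 CPM in WT and at 2568 and 2110 CPM in Krt9 null libraries. WT replicate 4 was the lowest library, the groups overlapped, and the 2 runs differed in sign (-0.42 and 0.22). The adjacent Krt16 was likewise split, at -2.23 in run A and 0.55 in run B, while Krt17 (-0.08, SE 0.23) and Krt36 (0.18, SE 0.78) did not separate the groups. The 109-fold difference of Krt19 thus stood among coding neighbours whose fitted Krt9 null and WT levels were within 3.03-fold of each other. The reads of Krt16 are less secure than those of Krt19, since 37.6% of its 50-base stretches occur in transcripts of other genes, and 14.4% of those of Krt14.

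**Figure D1:**
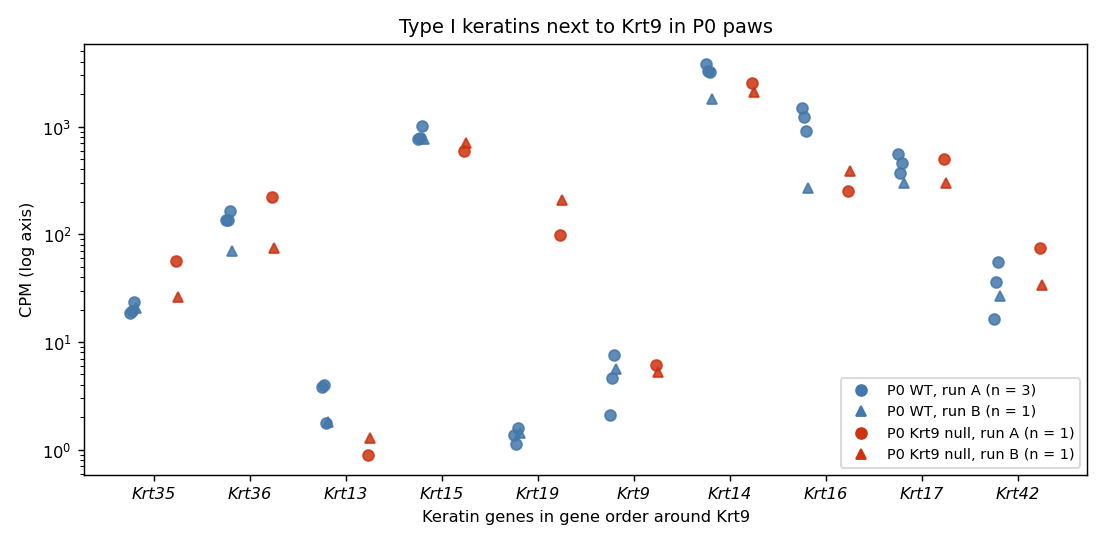
Level of each type I keratin near Krt9 in gene order, in CPM on a log axis, with 1 point per P0 library (circles, run A; triangles, run B). Krt19 is the only gene whose Krt9 null libraries, at 99.6 and 209 CPM, stand far from the WT libraries, at 1.13 to 1.61 CPM.

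Beyond Krt19 no gene passed over all genes tested. The differences that appeared in both runs are described next, as values. They are genes with an unadjusted p under 0.05 in which both Krt9 null libraries lay outside the WT range, with 5 CPM or more on average in the group where they were higher and a log2 difference of at least 0.5 in the same direction in each run. That rule used the same contrast, so nothing is read from how many genes met it. Across all genes tested, 3.23% were higher and 2.73% lower at an unadjusted p under 0.05, 6.47% lay above and 4.82% below all WT libraries, and 2.81% were higher and 3.60% lower by at least 0.5 in both runs. The rule was met by 12 higher genes, Krt19 among them, of which 11 are named, and by 19 lower genes, of which the 12 most reduced are named. For the 23 of these 24 genes other than Krt19, edgeR's adjusted p was 0.831. All 23 had the same sign without WT replicate 4 and with the run as a term. The rule all but fixed that outcome, since it required the same direction in each run, so nothing is read from it.

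Slc15a2 (Pept2), a proton-coupled transporter of small peptides, came after Krt19 in size among the higher genes. It was at 1.02, 1.02, 0.179 and 1.09 CPM in WT and at 40.4 and 18.6 CPM in Krt9 null libraries. No library fell between, and the log2 fold change was 4.93 (SE 1.18, unadjusted p = 0.00183), at 5.96 in run A and 4.03 in run B. At P3, however, WT libraries held anywhere from 1.20 to 30.3 CPM of it, so single WT libraries of that day reached the Krt9 null level of P0. Its transcript shares 0% of its 50-base stretches with other genes.

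A pair of inner root sheath keratins, which form the sleeve that molds the growing hair, came next. Krt73 was at 7.84, 3.31, 2.79 and 4.94 CPM in WT and at 24.8 and 10.2 CPM in Krt9 null libraries (log2 1.77, SE 0.65). Krt28 was at 6.06, 3.12, 2.00 and 3.60 CPM in WT and at 15.4 and 9.88 CPM in Krt9 null libraries (1.73, SE 0.61). In both genes Krt9 null replicate 1 was the highest library and Krt9 null replicate 2 the second, and WT replicate 1, of the same litter as Krt9 null replicate 1, was the highest WT library. Both genes were at 35.3 CPM or more in every P3 WT library.

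The remaining higher genes differed by 0.61 to 1.51 on the log2 scale. Cyp2g1, a cytochrome P450 first known from olfactory mucosa, was at 1.10 to 2.64 CPM in WT and at 6.69 and 4.64 CPM in Krt9 null libraries (1.51, SE 0.48). Prlr, the prolactin receptor, was at 2.36 to 3.80 CPM in WT and at 6.40 and 4.71 CPM in Krt9 null libraries (0.83, SE 0.24). Rspo1, a secreted enhancer of Wnt signalling whose loss causes palmoplantar keratoderma in people, was at 4.15, 2.71, 2.68 and 3.47 CPM in WT and at 4.79 and 6.30 CPM in Krt9 null libraries (0.77, SE 0.26). Its Krt9 null values lay just outside the WT range. Cdc45, a part of the replicative helicase, had the tightest values of this group, at 10.8, 9.93, 10.5 and 11 CPM in WT and at 15.8 and 16.8 CPM in Krt9 null libraries (0.62, SE 0.15, unadjusted p = 0.000786). It stood 0.60 higher in each run. Acad11 (0.61, SE 0.18), an acyl-CoA dehydrogenase, Slitrk6 (0.75, SE 0.23), a neuronal membrane protein, and Golga7b (0.70, SE 0.25) were higher by similar amounts.

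Among the lower genes Spp1, which encodes osteopontin of bone matrix, was the most abundant and had the smallest p. It was at 1645, 2386, 1660 and 2306 CPM in WT and at 854 and 1314 CPM in Krt9 null libraries. Both Krt9 null libraries lay below the WT range. The fitted log2 fold change was -0.89 (SE 0.17, edgeR's unadjusted p = 0.000133), with -1.13 in run A and -0.81 in run B. Mmp13, the collagenase of hypertrophic cartilage and bone, was at 336, 637, 242 and 373 CPM in WT and at 124 and 184 CPM in Krt9 null libraries (-1.35, SE 0.47). Atp6v0d2, a proton pump subunit of osteoclasts, was at 17.8, 31.3, 23.8 and 23.3 CPM in WT and at 14.1 and 10.3 CPM in Krt9 null libraries (-0.97, SE 0.34).
A further set is known from muscle or its energy supply. Lmcd1, a LIM protein of heart and skeletal muscle, was at 48.1, 69.2, 50.9 and 39.1 CPM in WT and at 31.3 and 26.6 CPM in Krt9 null libraries (-0.84, SE 0.22). Rbm24, a splicing regulator of muscle, was at 32.7, 63.5, 33.7 and 34.7 CPM in WT and at 23.5 and 24.0 CPM in Krt9 null libraries (-0.76, SE 0.30). Hhatl (-1.22, SE 0.49), Klhl33 (-1.06, SE 0.38) and Ppargc1a (-1.01, SE 0.46), the coactivator of mitochondrial biogenesis, were lower by similar amounts. In all 12 lower genes named by the rule, Spp1, Mmp13 and Atp6v0d2 included, WT replicate 2 was the highest P0 library. This library also held the most muscle RNA, as given below. Enpp6, a choline phosphodiesterase of bone and glia, was nearly constant in WT, at 9.55 to 10.3 CPM, against 5.68 and 4.76 CPM in Krt9 null libraries (-0.91, SE 0.37). Wwox, an oxidoreductase studied as a tumour suppressor, was at 12.9 to 16.1 CPM in WT and at 8.01 and 8.54 CPM in Krt9 null libraries (-0.80, SE 0.23). Shisal1 (-1.26, SE 0.48) and Mtus2 (-0.96, SE 0.43) were at 12.7 CPM or less in every P0 library.

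**Figure D2:**
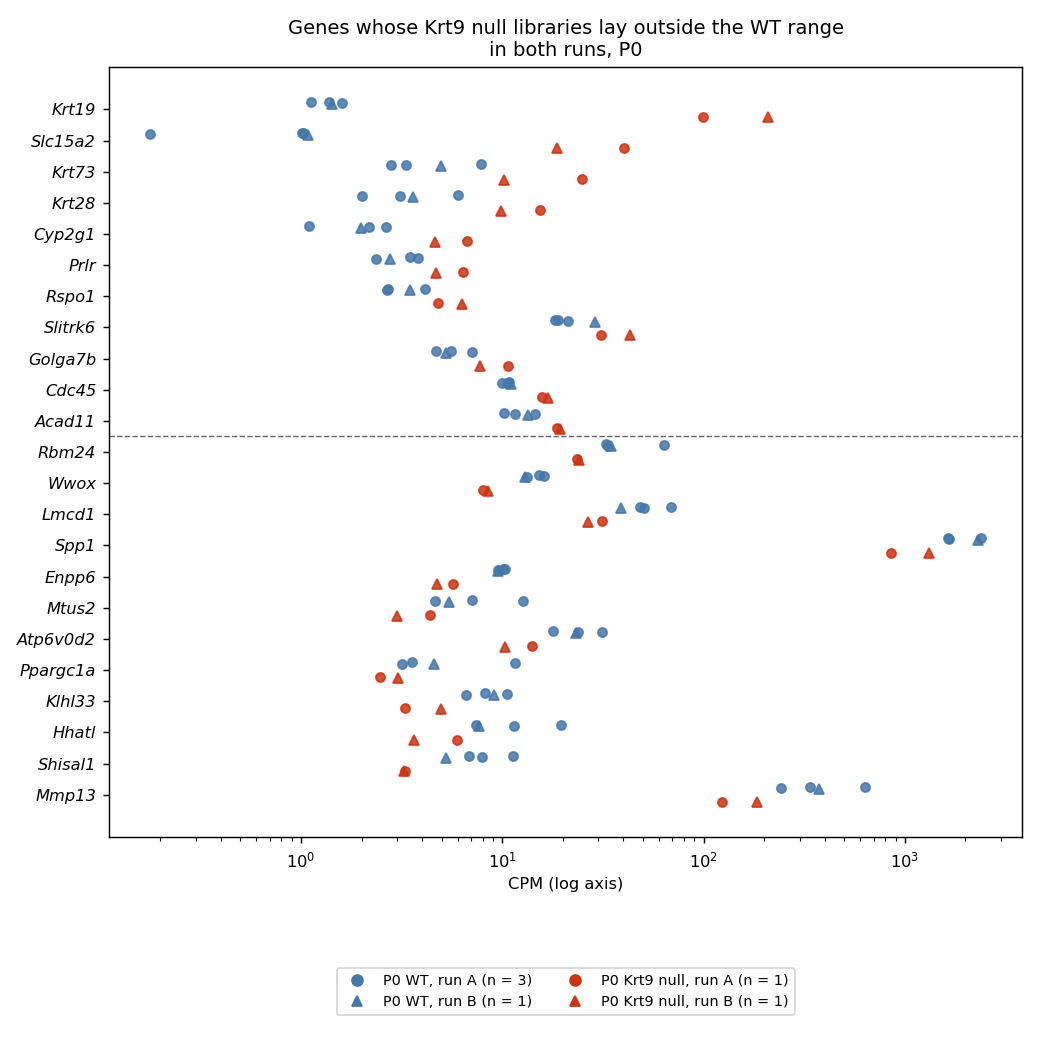
Level in CPM on a log axis of 11 higher genes (above the dashed line) and 12 lower genes (under it) that met the rule in both runs, 1 point per P0 library. Krt19 and Slc15a2 have a wide empty gap between WT and Krt9 null libraries, whereas most others lie just outside the WT range.

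DESeq2 with the same design called 9 genes (0.0416% of genes tested), 3 higher and 6 lower. Apart from Krt19, the higher ones were Gm5538 and A730082K24Rik, which had 0 CPM in all 4 WT libraries and at most 0.373 CPM in a Krt9 null library. The lower ones were Spp1, Lor, Nccrp1, Zbtb16, Gm42776 and Gm28068, of which the last 2 did not exceed 0.157 CPM in any P0 library. Nccrp1, an F-box-like protein of squamous epithelium, was at 247, 210, 256 and 95.7 CPM in WT and at 114 and 77.9 CPM in Krt9 null libraries (-1.05, SE 0.23 by edgeR). WT replicate 4 lay between the Krt9 null libraries, so the groups overlapped, and the difference was -1.05 in run A and -0.30 in run B. Without WT replicate 4, edgeR called Nccrp1 at -1.24 beside Krt19 and Uck2, a uridine-cytidine kinase, at -0.93.

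In several epidermal lists the 2 runs went apart. Loricrin (Lor), the main protein of the cornified envelope, was at 10508, 7822, 10842 and 4294 CPM in WT and at 4922 and 3487 CPM in Krt9 null libraries. WT replicate 4 was far below the other WT libraries and under Krt9 null replicate 1. The log2 fold change was -0.96 (SE 0.23, unadjusted p = 0.000842), with -0.97 in run A and -0.30 in run B. Of 26 cornified envelope genes tested, 8 were lower and 0 higher at an unadjusted p under 0.05, beside 2.73% and 3.23% of all genes, and 0 lay below all WT libraries, beside 4.82%. The list's median was -0.53 in the fit, -0.60 in run A and 0.28 in run B, with 25 of 26 genes negative in run A (49% of all genes were) and 20 of 26 positive in run B (49.6% of all genes). Corneodesmosin (Cdsn), for example, was at 446, 370 and 447 CPM in the WT libraries of run A against 205 CPM in the Krt9 null library, and at 143 against 164 CPM in run B. The crosslinking enzyme Tgm1 went the same way, at 224, 179 and 181 against 88.9 CPM in run A and 68.9 against 85.7 CPM in run B.

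The same opposition was seen in the barrier lipid and late cornified envelope lists, and not in the Sprr2 genes. Of 27 barrier lipid genes, 23 were negative in run A (49% of all genes were) and 21 positive in run B (49.6%), with medians of -0.64 and 0.29. The fitted median was -0.51, and -0.27 without WT replicate 2. Alox12b, the lipoxygenase that prepares ceramides for the lipid envelope, was at 210, 238 and 249 against 96.2 CPM in run A and at 74.0 against 90.3 CPM in run B. The 19 late cornified envelope (Lce) genes tested had a median of -0.33 in run A and 0.45 in run B. In run B all 19 were positive (49.6% of all genes were). Their fitted median was -0.34, and -0.54 without WT replicate 4. The 11 Sprr2 genes, which encode small proline-rich envelope proteins, were negative at the median in both, at -1.65 and -0.33. The WT libraries of the 2 runs stood apart from each other. The cornified envelope score, a mean of log2(CPM + 1), was 7.89, 7.60 and 7.66 in the WT libraries of run A and 6.58 in that of run B. The Krt9 null scores, 7.10 and 6.85, lay between.

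The wound and stress keratins had a wide gap between the runs. Krt16, the type I keratin induced in wounded and stressed epidermis, was at 1495, 1228 and 919 CPM in the WT libraries of run A against 254 CPM in Krt9 null replicate 1. In run B it was at 267 CPM in WT against 389 CPM in the Krt9 null library. Krt6a was at 444, 400 and 338 against 141 CPM in run A and at 42.6 against 82.5 CPM in run B. Krt6b had differences of -1.60 and 1.83. None of these keratins passed in the fit of all libraries (Krt16 -1.60, SE 0.92; Krt6a -1.45, SE 0.67; Krt6b -1.40, SE 1.17). Of the 50-base stretches of Krt6a and Krt6b, 62.0% and 50.1% occur in other genes' transcripts, so the split of reads between them is uncertain.

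A smaller group of epidermal genes was lower in both runs. Krt1, the type II keratin of differentiating keratinocytes, was at 15041, 12172 and 13595 CPM against 8330 CPM in run A, and at 6768 against 4453 CPM in run B. Within each run the Krt9 null library was the lowest, although Krt9 null replicate 1 exceeded WT replicate 4. The differences were -0.70 and -0.60, and the fitted one -0.92 (SE 0.36, unadjusted p = 0.0238). Its partner Krt10 was at 11538, 9123 and 10204 against 6396 CPM in run A and at 4921 against 2997 CPM in run B (-0.68 and -0.72, fitted -0.97, SE 0.40). The desmosomal linker desmoplakin (Dsp) stood at -0.52 and -0.43 (fitted -0.78, SE 0.31), and plakoglobin (Jup), its partner in the plaque, at -0.57 and -0.43 (fitted -0.83, SE 0.24). The envelope proteins envoplakin (Evpl, -0.30 and -0.50) and Tgm3 (-0.40 and -0.57) were negative in both runs as well.
Across the 9 suprabasal keratins tested, 3 were lower (Krt1, Krt10 and Krt80) and 1 higher (Krt79) at an unadjusted p under 0.05. Among all genes these shares were 2.73% and 3.23%. Krt79, known from the canal of the hair follicle, was at 66.8, 48.4, 36.5 and 56.6 CPM in WT and at 120 and 70.4 CPM in Krt9 null libraries (0.84, SE 0.26), above all WT. All 3 basal keratins tested were negative in the fit (median -0.37) and in run A. By run, Krt15 stood at -0.52 and -0.14, Krt14 at -0.42 and 0.22, and Krt5 at -0.06 and 0.12. Of 14 desmosome genes, 3 were lower at an unadjusted p under 0.05 (Dsp, Jup and Pkp3), beside 2.73% of all genes. The medians of this list were -0.50 in run A and -0.01 in run B.

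**Figure D3:**
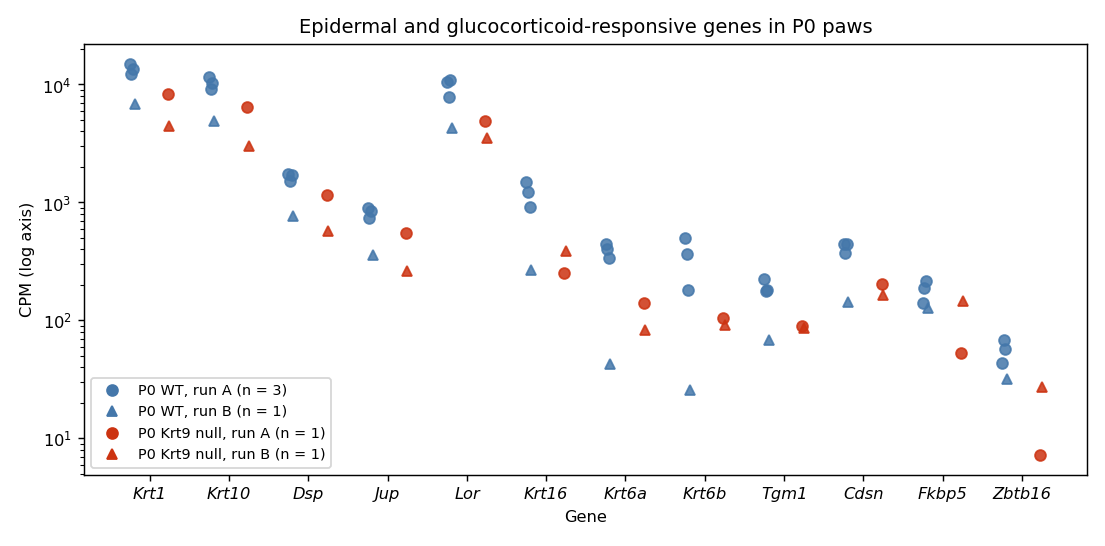
Level in CPM on a log axis of epidermal genes and of the glucocorticoid-responsive Fkbp5 and Zbtb16, 1 point per P0 library (circles, run A; triangles, run B). For Krt1, Krt10, Dsp, Jup and Lor each Krt9 null point lies below the WT points of its own run, while for Krt16, Krt6a, Krt6b, Tgm1 and Cdsn the Krt9 null point of run B lies above its WT partner.

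Each run was also fitted alone, with 1 Krt9 null library at P0. In run B there is also only 1 WT library at P0, so all of its spread comes from 4 libraries of P3. These calls compare single libraries and not the genotypes. Run A called 579 genes, 1.24% of its genes higher and 1.43% lower, and run B called 324, 0.592% higher and 0.851% lower. For Krt19 run B alone gave a log2 fold change of 7.21 with edgeR's adjusted p = 0.577. Some genes went the same way in both runs and others apart. Slurp1, a secreted Ly6 protein whose loss causes the keratoderma mal de Meleda, was at 15.5, 14.5 and 16.6 against 34.9 CPM in run A and at 7.94 against 13.1 CPM in run B. Opposite signs were seen for Serpinb2 (-1.66 and 0.99), an inhibitor of plasminogen activators, Hopx (-1.56 and 0.72), a homeodomain protein of late differentiation, and the sphingolipid enzyme Degs2 (-1.34 and 1.01).

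Over genes as a whole the runs did not go together. Across the 10648 genes with a mean of at least 10 CPM, Pearson's r between the difference of run A and that of run B was -0.150, and 43.3% of genes had the same sign. Across the 1982 genes of at least 100 CPM Pearson's r was -0.386 with 41.4% of the same sign. By rank (Spearman's rho) the values were -0.170 and -0.156, so by rank the abundant genes did not go apart more. Over all 21619 genes tested Pearson's r was -0.069, and 45.6% had the same sign. These are descriptions across genes, which are not independent, and the 2 differences share no library but have 1 Krt9 null library each. Among the 10648 genes of at least 10 CPM, Krt19 and Slc15a2 lay far out where both runs were positive. Their WT libraries held 1.61 CPM or less, so both reached that mean only through their Krt9 null libraries. Their place there is thus partly set by the filter. Rarer genes that it left out, such as A730082K24Rik (2.78 and 2.28), could be positive in both runs as well.

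**Figure D4:**
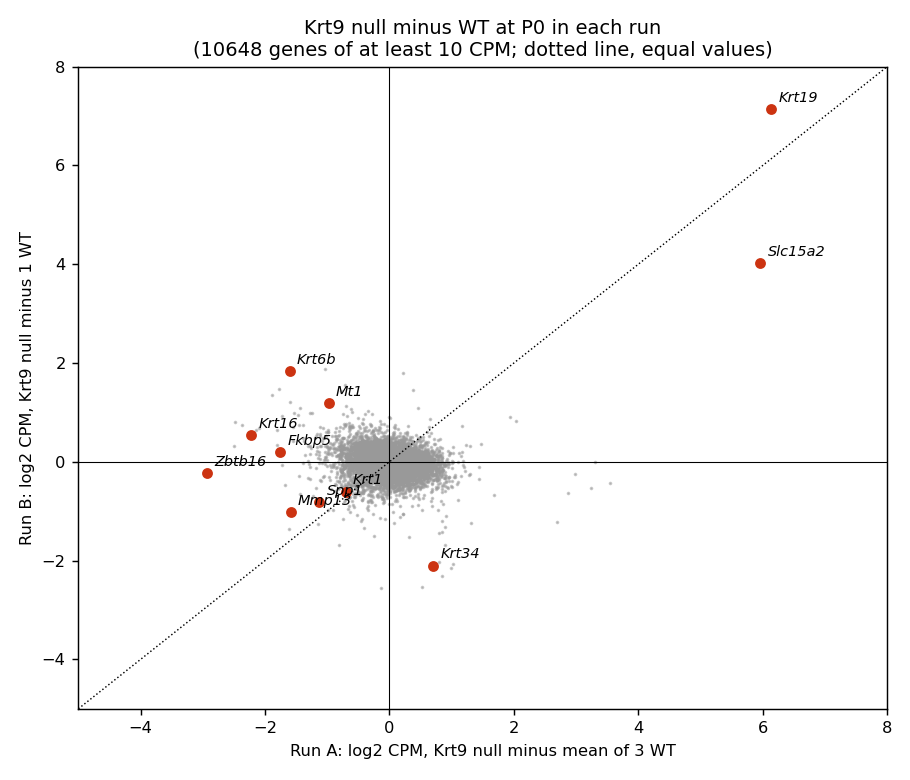
Krt9 null minus WT difference of log2 CPM for each of 10648 genes of at least 10 CPM, run A on the horizontal and run B on the vertical axis. Krt19 (6.13 and 7.14) and Slc15a2 (5.96 and 4.03) lie far out near the dotted line of equal values, while Krt16, Krt6b and Mt1 are negative in run A and positive in run B.

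Hair follicle genes were next. All 8 inner root sheath keratins had a positive fitted log2 fold change, with a median of 1.32 (1.99 in run A and 0.87 in run B). Of these, 4 lay above all WT libraries (6.47% of all genes did), and 2 were higher at an unadjusted p under 0.05 (3.23% of all genes were). In both runs 6 were at least 0.5 higher (2.81% of all genes were). The more abundant Krt71 was at 38.0, 7.22, 7.97 and 16.0 CPM in WT and at 50 and 30.2 CPM in Krt9 null libraries, and Krt25 at 32.5, 7.60, 6.65 and 11.7 CPM in WT and at 48.6 and 20.8 CPM in Krt9 null libraries. In both genes WT replicate 1 exceeded Krt9 null replicate 2, and the WT libraries alone spanned a wide range. The list's median was 1.67 without WT replicate 1, 1.02 without WT replicate 3 and 1.03 without Krt9 null replicate 2.
The 15 hair and nail keratins behaved otherwise, with all 15 positive in run A (median 0.85; 50.9% of all genes were) and 10 of 15 negative in run B (-0.48; 50.4% of all genes). Their fitted median was 0.05, and it ran from -0.31 without Krt9 null replicate 1 to 0.44 without WT replicate 4. Krt36 was at 134, 135 and 164 against 223 CPM in run A and at 69.8 against 74.4 CPM in run B. Among 14 genes of follicle development 4 lay above all WT libraries (6.47% of all genes did). Sostdc1, a secreted BMP and Wnt antagonist, had the smallest p of them. It was at 39.0, 26.8, 38.8 and 46.4 CPM in WT and at 59.7 and 54.1 CPM in Krt9 null libraries (0.59, SE 0.19). The median of the follicle development list was 0.38 (0.62 in run A and 0.14 in run B), or 0.09 without Krt9 null replicate 1. Of 17 genes of volar skin and sweat gland development, 1 was higher at an unadjusted p under 0.05 (Wnt7a, 0.70, SE 0.31) and 1 lower (Eda, -0.47, SE 0.20). Of all genes 3.23% were higher and 2.73% lower. Wnt7a, a dorsal limb signal, was at 2.07 to 3.75 CPM in WT and at 4.88 and 5.01 CPM in Krt9 null libraries.

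Glucocorticoid-responsive genes were lower in run A and not in run B. Zbtb16 (PLZF), a zinc finger repressor strongly induced by the hormone, was at 43.6, 67.6 and 57.7 CPM in WT against 7.20 CPM in Krt9 null replicate 1. In run B it was at 32.0 in WT and 27.2 CPM in Krt9 null replicate 2, so it lay below all WT libraries in both (-1.68, SE 0.43), by -2.93 in run A and -0.23 in run B. Fkbp5, a co-chaperone of the glucocorticoid receptor, was at 142, 189 and 214 against 52.9 CPM in run A and at 127 against 146 CPM in run B. Of 14 genes on this list 4 were lower at an unadjusted p under 0.05 (Zbtb16, Fkbp5, Klf9 and Cdkn1a), beside 2.73% of all genes. The median was -0.30 in the fit, -0.83 in run A and 0.40 in run B, and it came to -0.06 without WT replicate 2 and -0.56 without WT replicate 4. It was -0.08 when Krt9 null replicate 1 was left out and -0.73 when Krt9 null replicate 2 was. The list's score was 6.27, 6.74, 6.64 and 5.68 in WT and 5.69 and 6.16 in Krt9 null libraries, so WT replicate 4 was as low as Krt9 null replicate 1. The 18 AP-1 and immediate early genes, which respond to handling and stress within minutes to hours, had medians of -0.27 and 0.30. All 18 were positive in run B (49.6% of all genes were), and 0 passed an unadjusted p under 0.05 in the fit.

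Lists linked to the keratoderma and to mechanical load were mixed. Of 25 genes known from palmoplantar keratodermas, 7 were lower (2.73% of all genes were) and 0 higher (3.23%) at an unadjusted p under 0.05, with Krt1, Lor, Dsp and Jup among the 7. Gjb2 (connexin 26) was at 369, 293, 312 and 102 CPM in WT and at 126 and 112 CPM in Krt9 null libraries (-1.12, SE 0.35), with WT replicate 4 the lowest library and run differences of -1.35 and 0.13. Card14, an activator of NF-kappaB in keratinocytes, was at 8.39, 8.01, 8.11 and 5.38 CPM in WT and at 5.02 and 4.46 CPM in Krt9 null libraries, below all WT (-0.64, SE 0.26). The list's median was -0.50 in run A and -0.02 in run B, and the fitted one was -0.39, or -0.59 without WT replicate 4. Of 19 genes of mechanosensing and YAP signalling, 2 were lower at an unadjusted p under 0.05, beside 2.73% of all genes. They were the DNA-binding partners Tead1 (-0.65, SE 0.23) and Tead4 (-0.77, SE 0.23). Tead4 was at 36.5, 38.0 and 38.8 against 20.1 CPM in run A and at 20.1 against 18.6 CPM in run B.

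Among other cell processes, the unfolded protein response list had 5 of 14 genes higher at an unadjusted p under 0.05 (3.23% of all genes were) and 4 above all WT libraries (6.47%). The chaperone Hspa5 (BiP) was at 296, 329, 364 and 306 CPM in WT and at 439 and 386 CPM in Krt9 null libraries (0.35, SE 0.15, 0.42 in run A and 0.34 in run B). Ddit3 (CHOP), a transcription factor of prolonged stress of the endoplasmic reticulum, was at 9.40 to 13.0 CPM in WT and at 13.5 and 17.4 CPM in Krt9 null libraries (0.48, SE 0.16). These differences are under 1.5-fold, and without Krt9 null replicate 1 the list's median was 0.03 in place of 0.24. All 22 cell cycle genes tested had a positive log2 fold change, with a median of 0.20, where 50.5% of all genes had a negative one. Of the 22, 2 were higher at an unadjusted p under 0.05 (3.23% of all genes were). In run A 21 were positive and in run B 16 (50.9% and 49.6% of all genes), with medians of 0.21 and 0.10. The helicase subunit Mcm7 was at 73.3 to 78.9 CPM in WT and at 87.7 and 104 CPM in Krt9 null libraries (0.32, SE 0.12). Of 23 cholesterol synthesis genes, 6 were lower and 0 higher at an unadjusted p under 0.05, beside 2.73% and 3.23% of all genes. Their medians were -0.32 in run A and -0.05 in run B, and the fitted one was -0.37, or -0.20 without WT replicate 2. The 30 interferon response genes had a median of 0.44 in the fit, but 0.11 and 0.18 within the runs, 0.65 without WT replicate 4 and 0.00 without Krt9 null replicate 2.

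Bone and muscle lists are given beside the bone and muscle genes named above. Of 14 osteoblast and osteocyte genes, 4 lay below all WT libraries (4.82% of all genes did) and 6 were at least 0.5 lower in both runs (3.60% of all genes were), Spp1 among them, and the median was -0.68. Ibsp, bone sialoprotein, was at 689, 629, 542 and 382 CPM in WT and at 393 and 207 CPM in Krt9 null libraries (-0.93, SE 0.37). The list's score was 5.07, 5.44, 5.21 and 5.22 in WT and 4.96 and 4.47 in Krt9 null libraries. Without Krt9 null replicate 2 the median was -0.30. The osteocyte gene Sost went the other way (1.15, SE 0.47) at 3.33 CPM or less. Of 13 osteoclast genes 3 lay below all WT libraries (4.82% of all genes did). The osteoclast median was -0.45 (-0.22 in run A and -0.68 in run B), or -0.11 without Krt9 null replicate 2. The score of this list was 5.15 to 5.80 in WT and 5.14 and 4.73 in Krt9 null libraries. The share of bone tissue in each paw was not measured, and its part in the difference of Spp1, Mmp13 and Atp6v0d2 was not tested.
All 20 fast muscle genes were negative (50.5% of all genes were), with a median of -0.80, and 0 passed an unadjusted p under 0.05. The fast muscle score was 4.98, 6.88, 5.36 and 5.66 in WT and 5.05 and 5.11 in Krt9 null libraries, so WT replicate 2 stood out and both Krt9 null libraries lay inside the WT range. Without that library the median was -0.33. Of 16 developmental muscle and myogenic genes, 6 lay below all WT libraries, beside 4.82% of all genes. That list's score was 4.67, 5.41, 4.62 and 4.70 in WT and below these in both Krt9 null libraries, at 4.48 and 4.31. Its median was -0.54, or -0.29 without WT replicate 2 and -0.23 without Krt9 null replicate 2. Myh8, the perinatal myosin heavy chain, was at 788, 3382, 1057 and 1098 CPM in WT and at 753 and 555 CPM in Krt9 null libraries. The part of muscle content in the lower Lmcd1, Rbm24, Hhatl, Klhl33 and Ppargc1a was not tested.
Of 10 T cell genes, 5 lay above all WT libraries (6.47% of all genes did). Thy1, which fibroblasts and nerves also express, was at 102, 79.3, 98.1 and 96.4 CPM in WT and at 119 and 137 CPM in Krt9 null libraries (0.45, SE 0.13). Cd5 was at 1.88 to 2.51 CPM in WT and at 3.65 and 4.41 CPM in Krt9 null libraries (0.92, SE 0.24), and Lck did not exceed 2.52 CPM.

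**Figure D5:**
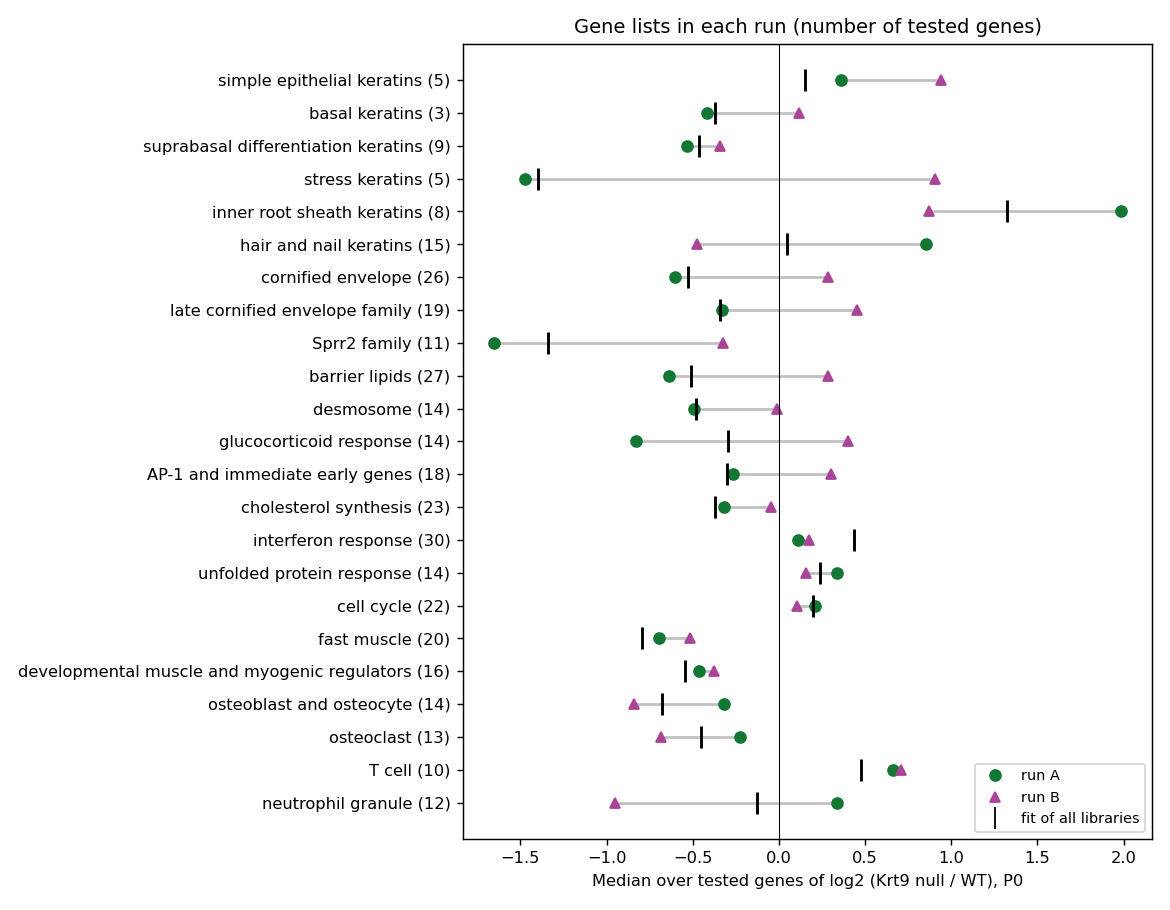
Median log2 difference between Krt9 null and WT libraries over the tested genes of 23 lists (number of genes in parentheses), in run A (circles), in run B (triangles) and in the fit of all libraries (bars). Inner root sheath keratins are positive and muscle and bone lists negative in both runs, while stress keratins (-1.47 and 0.90), cornified envelope, barrier lipids and glucocorticoid response change sign between the runs.

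The precision set how small a difference could be called. The median SE of the log2 fold change was 0.29 over all genes and 0.18 over genes of at least 10 CPM, of which 88.5% had an SE under 0.3. The smallest unadjusted p that was not called was 7.07e-05. A permutation of 2 against 4 libraries has 15 splits and so cannot give a two-sided exact p under 0.0667 for any single gene, Krt19 included.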

How the data were processed

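RNA was extracted from whole paws with TRIzol and depleted of ribosomal RNA for sequencing, per the labels' protocols. The authors deposited raw counts per gene for each library. The submitters' processing notes name the GRCm39 build, STAR 2.7.10a, and featureCounts, limma and edgeR, with no strand setting. Reads of overlapping or antisense genes may therefore not be told apart. Of 56691 gene IDs, 52073 matched a symbol of GENCODE M21 (GRCm38), which served for names and gene order, and the other 4618, with 0.623% of the counts, stayed in under their IDs. The deposited counts were filtered with filterByExpr (21619 genes kept) and TMM-scaled, then entered the robust quasi-likelihood test of edgeR 4.0.16 under R 4.3.3. All 14 libraries entered 1 fit of the 4 groups of genotype and day with labelled sex as a term, which left 9 residual degrees of freedom. Called genes are those with a Benjamini-Hochberg adjusted p under 0.05 over the whole table. For edgeR, SE is the size of the fitted log2 fold change divided by the square root of its F statistic. It approximates a standard error. Totals of 29634978 to 41004173 counts per P0 library limit the precision of low genes, and replicates measure the spread between these libraries.

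Differences within a run are of log2 CPM with a prior count of 2. Scores are means of log2(CPM + 1). The genes compared within runs, the 58 gene lists and the tests were chosen with earlier results of these data known. Named genes were Krt9, Krt19, genes called by edgeR or DESeq2, and up to 12 genes each way that met the rule given in the text. That rule left out predicted genes, clones and pseudogenes. Neighbours of Krt9 were named as well. From each list described, the 3 most abundant members and members with an unadjusted p under 0.05 were eligible, of which a part is named. Some genes that the rule reaches are not reported here. Uck2, Slurp1, Serpinb2, Hopx, Degs2 and some list members shown to illustrate run values were named after their values were seen.

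Alternatives were DESeq2 1.42.0, limma 3.58.1 voom, other scaling and filters, no sex term, non-robust dispersions, only P0 libraries, abundant RNA classes removed, the run as a term (also within each day), each run alone, litter as a block, and leaving out each P0 library. The fitting script was tested on simulated data. Sequences, summaries and figures were made in Python 3.11.15 (NumPy 2.4.6, pandas 2.3.3, matplotlib 3.10.9). Upstream sequence is from RefSeq (GRCm38.p6), in which Krt19 had no entry matched.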

Additional observations from a re-analysis of the deposited data

Results flagged for a closer look

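Among 90 sets of 4 WT values tested (named genes on the log2 CPM scale and list scores), 9 had 1 library far from the other 3, where the gap to the nearest library divided by the whole range of the 4 reached 0.829. Chance flags about 1 in 20 such groups.

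WT replicate 3 was the low one for Slc15a2 (0.959), at 0.179 CPM where the other WT libraries held 1.02 to 1.09 CPM. The Krt9 null libraries, at 40.4 and 18.6 CPM, lay above all of them. The same library was the only WT library with reads of Gm42776 (1), at 0.0357 CPM, and had the highest melanocyte score (0.896), at 1.91 against 1.67 to 1.69. WT replicate 2 was high for the muscle splicing regulator Rbm24 (0.909), at 63.5 CPM against 32.7 to 34.7 CPM. It was also high in the score of developmental muscle and myogenic regulators (0.898), at 5.41 against 4.62 to 4.70, and in the T cell score (0.862), at 1.49 against 1.42 to 1.43.

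WT replicate 4, the library whose sex markers did not match its label, was low in the barrier lipid score (0.829), at 5.32 against 6.13 to 6.30, and in the score of the EGF receptor and its ligands (0.904), at 3.97 against 4.66 to 4.73. It was high in the mast cell score (0.849), at 6.61 against 5.63 to 5.78. In the mast cell score Krt9 null replicate 2, of the same run, stood at 6.68 and Krt9 null replicate 1 at 5.79.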

How the results depend on the processing

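Krt19 kept its direction under all 22 alternatives. It passed the test under 20 of them, and did not pass in run B alone (7.21, edgeR's adjusted p = 0.577) or with litter as a fixed term (6.17, edgeR's adjusted p = 0.174). Leaving out each P0 library gave 6.10 to 7.30. The number of genes called was 1 in the fit reported. It was 182 without a filter on low counts, 9 by DESeq2, 2 with the run as a term within each day (Tspo beside Krt19), 579 in run A alone, 324 in run B alone, and 1 to 3 when each P0 library was left out, the 3 without WT replicate 4. Other scaling, filters and voom called 1 gene. The fits of 1 run rest on 1 Krt9 null library at P0, and run B also on 1 WT library, assumed to vary like the other groups, so these counts compare single libraries.

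The labels give litter but no replicate numbers shared by the groups, and only replicates 1 of Krt9 null and WT at P0 come from the same litter. With litter as a block by limma's duplicateCorrelation (consensus correlation 0.555), Krt19 was at 6.51 and 1 gene was called. With litter as a fixed block, only replicates 1 of Krt9 null and WT at P0 were compared, and Krt19 was not called.

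Krt9 turned sign in run B alone (-0.060) and ran from -0.0915 (without WT replicate 1) to 0.45 (without WT replicate 3) when a library was left out. Gm42776, near 0 in every P0 library, was at 0 in run B alone and with litter as a fixed block, and ran from -2.0 to 0.010 (without WT replicate 3) when a library was left out, and Gm28068 was at 0 in run B alone. Of 1275 medians of lists under an alternative, 103 moved by more than the spread between WT libraries, 25 of them in run B alone, 18 with litter as a fixed block and 15 without Krt9 null replicate 2. The cause was not tested. Depth limits genes near 0 CPM, of which Gm42776 and Gm28068 are examples.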
